A study of Homo sapiens with 6 samples.

Results

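The genes described here are 42 human genes of cholesterol synthesis, its control by SREBP and LXR factors, and fatty acid synthesis and desaturation. They were taken by name from a fixed list of members, out of 34905 genes with an estimated count in the series, and the rule uses no measured value. The cells were THP1, a monocytic line grown from a human acute myeloid leukaemia, and 6 RNA-seq libraries of their polyadenylated RNA fall into 3 labelled groups of 2. These are shA5 (ALKBH5 knock-down), A5-res (the knock-down with ALKBH5 restored) and shCtrl (the hairpin control, given as wild-type), and the groups share 1 line and 1 culture medium. ALKBH5 is an enzyme that removes methyl groups from adenosines in RNA, and the design sets its loss, and its restoration, against control cells. The labels give neither the hairpin sequence nor the rescue construct, and name no number of clones. Each group has a library numbered 1 and a library numbered 2, and the labels do not say what the number stands for or whether the libraries came from separate cultures. All p-values therefore speak only of the spread among these 6 libraries, which may be technical.

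Cells make cholesterol from acetyl-CoA through the mevalonate and squalene steps and make fatty acids from the same starting material. Both routes are driven by the SREBP transcription factors, which SCAP carries from the endoplasmic reticulum to the Golgi for cleavage when membrane sterol is low, and which the INSIG proteins hold back when sterol is plentiful. LXR receptors sense oxidised sterols and switch on sterol exporters together with the gene of one SREBP, a circuit best known in monocytes and macrophages. The 42 members comprise 18 sterol synthesis enzymes, 6 genes of SREBP regulation and sterol transport, 14 genes of fatty acid synthesis, desaturation and activation, and 4 genes of LXR receptors and sterol exporters.

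The targeted gene separated the libraries by number and not by label. Levels per library are given as CPM (counts per 1e6 of the TMM-scaled library size). ALKBH5 had 1003 CPM in shA5, 968 CPM in A5-res and 1097 CPM in shCtrl in the libraries numbered 2, against 12.4 CPM in shA5, 13.6 CPM in A5-res and 14.6 CPM in shCtrl in those numbered 1. The number 2 libraries were 6.24 higher on the log2 scale (SE 0.107), and no difference along the labels was detected at this gene. Directions between labels refer to the libraries labelled so, and the members are described first by number, where most of their variation lay. What sets number 2 apart from number 1, ALKBH5 level or any other property of these libraries, cannot be told apart in this design. An exchange of files between samples, which would change what each label comparison compares, cannot be told apart from libraries that carry their own labels. Total estimated counts were 14534386 to 24857373 per library. All 12 monocyte and myeloid markers were measured, at a summed 3315 to 3789 CPM in number 2 and 3193 to 3459 CPM in number 1. The summed B cell markers, 3 of 6 past the filter on low counts, stood at 11.5 to 13.6 CPM in number 2 and 7.20 to 8.90 CPM in number 1. The T and NK cell markers, 1 of 8 past the filter with CD3D and CD2 at 0, stood at 15.1 to 19.4 CPM in number 2 and 20.0 to 22.1 CPM in number 1. The erythroid and megakaryocyte sum overlapped, at 0.479 to 0.682 CPM in number 2 and 0.478 to 0.743 CPM in number 1. So did the epithelial, hepatocyte and adipocyte sum, at 1.41 to 1.97 CPM in number 2 and 1.45 to 2.30 CPM in number 1. The low B cell and T and NK cell sums moved with the number in opposite directions, and their part in the results was not tested. In bulk RNA, fewer cells of a type and less RNA per cell cannot be told apart.

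Of the 42 members, 41 passed the filter on low counts and were tested. ELOVL6, an elongase of saturated fatty acids, did not pass, at 0 to 0.171 CPM. Of the 41 tested, 40 averaged at least 5 CPM, and ABCG1 did not. By TPM summed over a gene's transcripts, the most abundant members were enzymes of both routes. The farnesyl diphosphate synthase FDPS averaged 495 TPM (the authors' length-scaled level) over the 6 libraries, the squalene synthase FDFT1 263 TPM, the fatty acid synthase FASN 258 TPM and the citrate cleaving enzyme ACLY 143 TPM. FASN-201, the form with 97.2% of FASN's counts, averaged only 120 TPM in number 2 and 86.9 TPM in number 1. Much of FASN's summed TPM thus came from forms that held few of its counts. The lowest averages past 1 TPM were those of INSIG2 at 7.65 TPM, the sterol desaturase SC5D at 10.4 TPM and the sterol reductase TM7SF2 at 10.5 TPM. No source used here states the strand setting of the counting, so reads from exons that genes of opposite strands share cannot be told apart. ACAT2, SREBF1, MVK, NR1H3, FADS1 and FADS2 share 4.17% to 9.24% of their exon bases with such a gene that passed the filter. CYP51A1 shares 79.4% of its exon bases with AC000120.2 on its own strand, which was given 1.0 count on average.

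**Figure D1:**
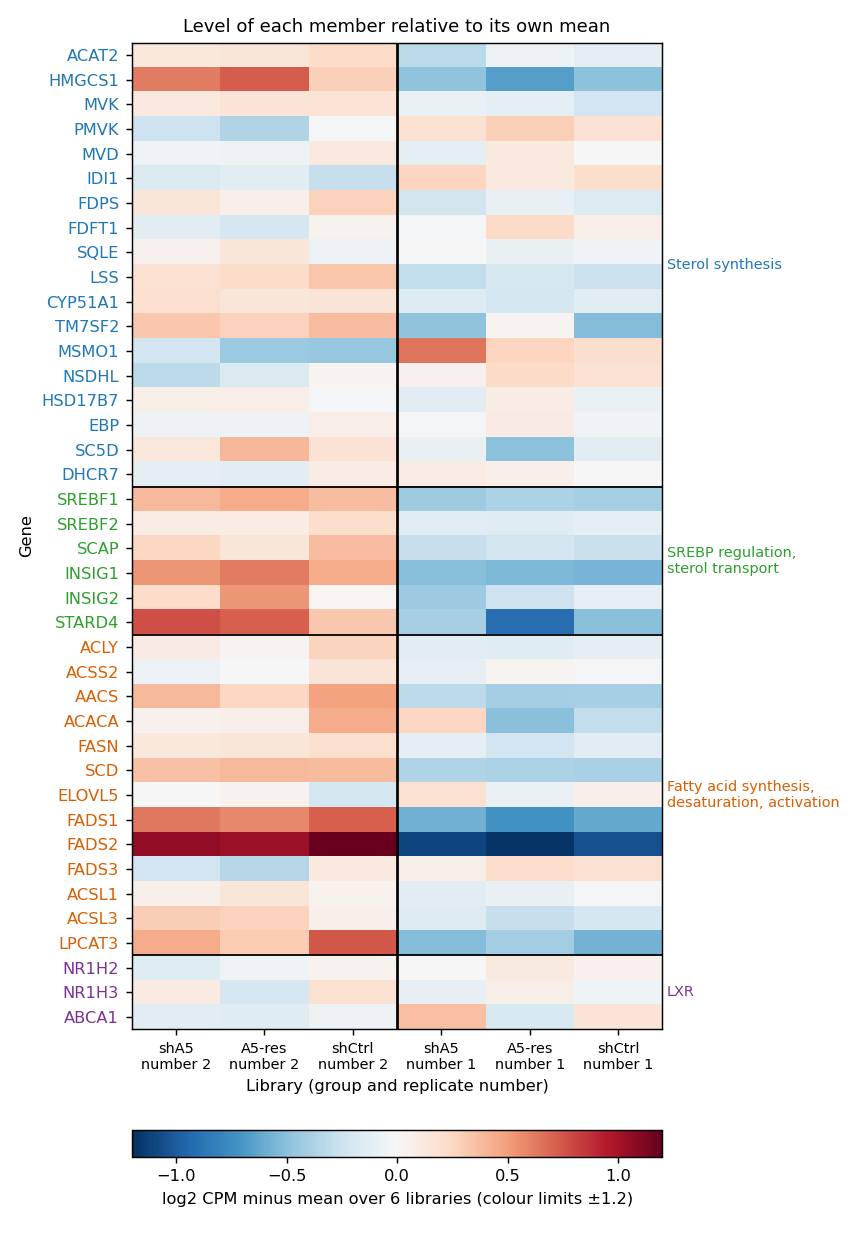
Levels of the 40 members with a mean of at least 5 CPM, as log2 CPM minus the gene's mean over 6 libraries, in columns by library (number 2 left of the line, number 1 right of it) and rows by role. FADS2, FADS1, INSIG1, STARD4 and HMGCS1 are higher in all 3 libraries numbered 2, MSMO1 is lower in all 3, and columns of the same number look alike whatever their label.

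Between the numbers, 25 of the 41 tested members passed an adjusted p of 0.05, 21 of them higher and 4 lower in number 2. In edgeR's quasi-likelihood test with group and number as terms, that is 61.0% of the members, beside a background of 45.4% of all 14497 genes tested. The share called higher was 51.2% of members against 22.8% of all genes, and the share called lower was 9.76% against 22.6%. The members' median log2 fold change was 0.31, and that of all genes was 0.01. CPM did not overlap between the numbers for 27 of the 41 members, 23 of them higher in number 2, against 57.7% of all genes in either direction. Only 5 of the 25 changed by more than 2-fold, namely FADS2, FADS1, STARD4, HMGCS1 and INSIG1. Fewer members were called without shA5 replicate 1 and without shA5 replicate 2, fits that leave shA5 with 1 library. The number of genes called over the whole table also changed with the library left out. The fall is therefore not read as particular to the members. The calls lost in both were ACAT2, ACLY, ACSL3, CYP51A1, FASN, FDPS, IDI1, INSIG2, NSDHL, PMVK, SREBF2 and TM7SF2, and ACACA was gained. All 25 kept their direction there. In these fits a label left with 1 library adds nothing to the difference between numbers, so leaving out either of its libraries gives nearly the same value.

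SREBP regulation and sterol transport was the one role in which every gene rose in number 2. All 6 of its genes passed the test, with a median log2 fold change of 0.67, and none overlapped between numbers. Their summed level was 422 ± 24.0 TPM in number 2 and 242 ± 11.5 TPM in number 1 (SD, n = 3 each), a ratio of 1.74. The medians within each label were close to one another, at 0.73 in shA5, 0.79 in A5-res and 0.70 in shCtrl.

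The sequence before the start of SREBF2 and INSIG1 is shown because SREBF2 encodes a factor that binds sterol regulatory elements and INSIG1 encodes a protein that holds it back. Both are RefSeq sequences of GRCh38.p14 on the plus strand. They end at the base before the first base of the leading transcript, and lie at chr22:41832855-41833104 and chr7:155297628-155297775. Capitals mark a sterol regulatory element core (TCACNCCAC) or a CCAAT box, read here as its reverse complement.
SREBF2: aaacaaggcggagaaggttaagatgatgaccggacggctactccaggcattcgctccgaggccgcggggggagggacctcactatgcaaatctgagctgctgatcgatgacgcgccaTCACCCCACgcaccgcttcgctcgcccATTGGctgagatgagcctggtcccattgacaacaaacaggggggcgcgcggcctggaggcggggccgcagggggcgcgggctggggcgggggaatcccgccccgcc
INSIG1: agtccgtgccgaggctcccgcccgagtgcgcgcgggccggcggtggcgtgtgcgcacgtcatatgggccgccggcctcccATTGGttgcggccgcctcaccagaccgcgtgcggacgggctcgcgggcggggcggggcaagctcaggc
Of the motifs marked here, the SREBF2 stretch held the element core and, behind it, an inverted CCAAT box, whereas the INSIG1 stretch held only an inverted CCAAT box. Both stretches also held GC boxes (GGGCGG in either direction), which are not marked. A match is a run of letters and not evidence of binding.

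SREBF1 encodes the SREBP that mainly drives fatty acid genes. Its level was 113 CPM in shA5, 117 CPM in A5-res and 111 CPM in shCtrl in number 2, and 63.7 CPM in shA5, 66.0 CPM in A5-res and 64.9 CPM in shCtrl in number 1. The fitted log2 fold change was 0.80 (SE 0.0801, adjusted p = 7.36e-05 in edgeR). All 3 libraries numbered 2 stood above all 3 numbered 1 while the labels within a number lay close together.
SREBF2, which encodes the SREBP that mainly drives sterol genes, had a smaller fold change. It stood at 333 CPM in shA5, 334 CPM in A5-res and 363 CPM in shCtrl in number 2, and at 288 CPM in shA5, 283 CPM in A5-res and 289.9 CPM in shCtrl in number 1. As a log2 fold change this was 0.26 (SE 0.0789, adjusted p = 0.0245 in edgeR). The numbers did not overlap, but the call was also lost without either shCtrl library, and the value on the TPM scale was 0.46.
SCAP, the escort protein, had 105 CPM in shA5, 98.5 CPM in A5-res and 115 CPM in shCtrl in number 2 against 73.6 CPM in shA5, 76.5 CPM in A5-res and 74.1 CPM in shCtrl in number 1. Its log2 fold change was 0.50 (SE 0.0866, adjusted p = 0.0014 in edgeR), and the lowest library numbered 2 stood above the highest numbered 1. Part of the rise lay in SCAP-207, a form annotated for nonsense-mediated decay, at 10.4 TPM in number 2 and 5.15 TPM in number 1. The coding form SCAP-201 stood at 17.2 and 11.0 TPM. The protein-coding share of SCAP's counts was lower in every number 2 library, with means of 63.5% in number 2 and 71.6% in number 1.

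INSIG1, the retention protein whose gene is itself a classic SREBP target, was 2.10-fold higher. It was measured at 233 CPM in shA5, 249 CPM in A5-res and 221 CPM in shCtrl in the number 2 libraries and at 114 CPM in shA5, 111 CPM in A5-res and 109.9 CPM in shCtrl in the number 1 libraries. The log2 fold change was 1.07 (SE 0.0806, adjusted p = 1.89e-05 in edgeR), which ranked 241 of 10808 genes averaging 5 CPM or more. The 3 number 1 libraries were close to one another and far below the others.
INSIG2, the second retention protein, rested on 86 to 156 counts per library. It had 7.72 CPM in shA5, 9.60 CPM in A5-res and 6.76 CPM in shCtrl in number 2 and 4.91 CPM in shA5, 5.60 CPM in A5-res and 6.22 CPM in shCtrl in number 1. On the log2 scale number 2 differed by 0.53 (SE 0.17, adjusted p = 0.0296 in edgeR). The shCtrl libraries differed least, and the call was also lost in DESeq2, on the TPM scale, with GC and length offsets, and without either A5-res library. The value was 0.30 on the TPM scale and 0.29 with the offsets.
STARD4, a soluble carrier of cholesterol between membranes, had the largest fold change of this role. Its level was 46.0 CPM in shA5, 44.3 CPM in A5-res and 33.8 CPM in shCtrl in number 2, against 20.5 CPM in shA5, 14.3 CPM in A5-res and 19.0 CPM in shCtrl in number 1. The fitted log2 fold change was 1.21 (SE 0.148, adjusted p = 2.20e-04 in edgeR). The difference between numbers was 1.62 in A5-res, 1.16 in shA5 and 0.83 in shCtrl on the log2 scale. The A5-res library numbered 1 was the lowest of the 6. STARD4-209, a form annotated for nonsense-mediated decay, stood at 14.4 TPM in number 2 and 4.57 TPM in number 1, and the coding form STARD4-201 at 6.45 and 2.78 TPM. The protein-coding share of STARD4's counts overlapped between numbers.

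**Figure D2:**
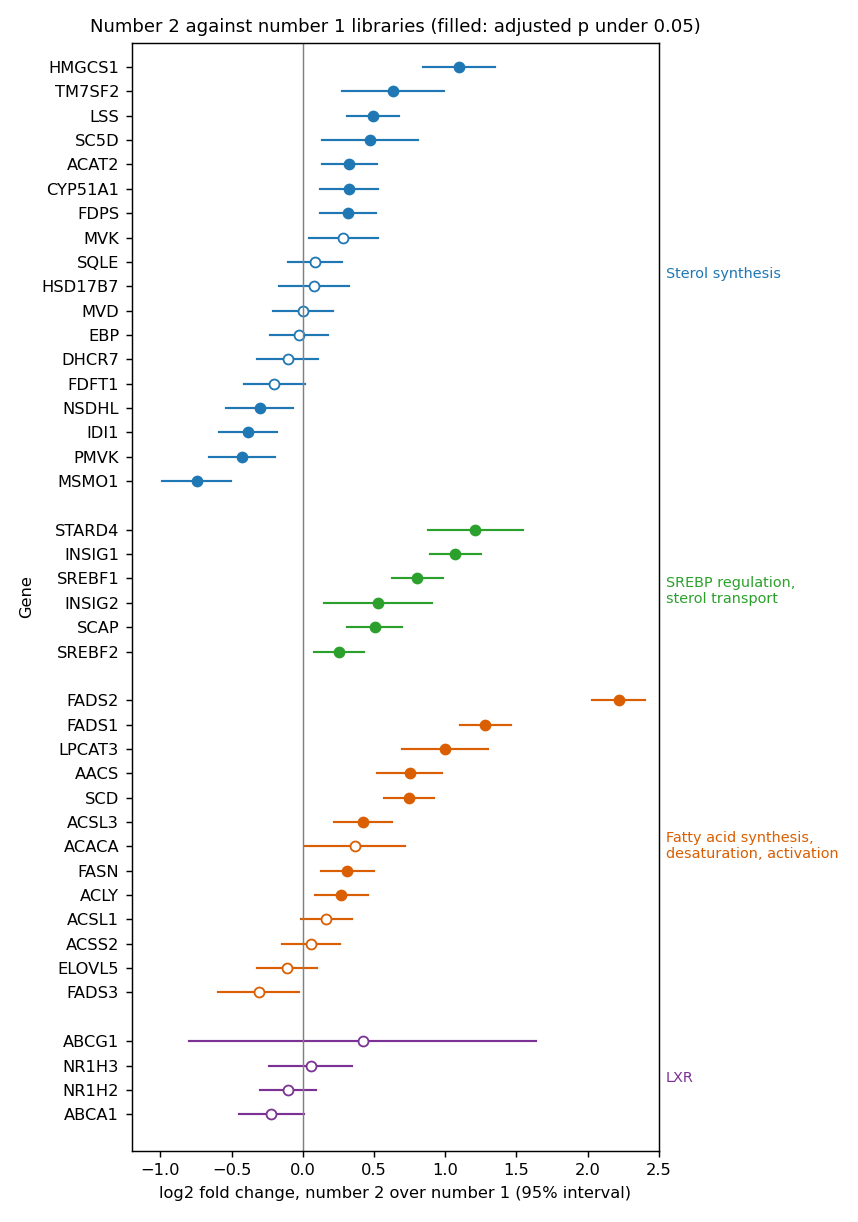
Log2 fold change of number 2 over number 1 with its 95% interval for the 41 tested members, by role, with filled points for an edgeR adjusted p under 0.05. All 6 genes of SREBP regulation and sterol transport are filled and right of 0, sterol enzymes lie on both sides from -0.75 to 1.09, and no LXR gene is filled.

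The sterol enzymes moved in both directions. Of 18 enzymes, 7 rose, 4 fell and 7 did not pass the test, and the median log2 fold change was 0.08, or 0.28 on the TPM scale. The share that fell, 22.2%, was near the background of 22.6%, and the share that rose was 38.9% against 22.8% of all genes. The 7 that rose were HMGCS1, TM7SF2, LSS, SC5D, ACAT2, CYP51A1 and FDPS. The 4 that fell were MSMO1, PMVK, IDI1 and NSDHL. The summed level was 1633 ± 6.33 TPM in number 2 and 1413 ± 29.7 TPM in number 1 (SD, n = 3 each), a ratio of 1.16. The sum is weighted to FDPS, the most abundant enzyme.

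HMGCS1 and MSMO1 stood at the ends of that range, and the stretches before their starts are shown together because both hold CCAAT boxes and neither holds the element core. They are RefSeq GRCh38.p14 sequences ending at the base before the leading GENCODE transcript, at chr5:43313513-43313662 on the minus strand and chr4:165327419-165327622 on the plus strand. Capitals mark CCAAT boxes in either direction.
HMGCS1: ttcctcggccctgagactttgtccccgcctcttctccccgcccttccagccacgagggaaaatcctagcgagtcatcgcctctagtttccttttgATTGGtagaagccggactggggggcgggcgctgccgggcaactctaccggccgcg
MSMO1: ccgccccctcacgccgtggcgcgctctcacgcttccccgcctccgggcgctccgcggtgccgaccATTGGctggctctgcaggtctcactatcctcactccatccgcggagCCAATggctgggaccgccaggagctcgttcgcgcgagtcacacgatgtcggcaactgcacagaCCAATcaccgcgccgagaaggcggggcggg
The HMGCS1 stretch of 150 bases held 1 such box and the MSMO1 stretch of 204 bases held 3. These counts depend on where each stretch ends. A further box lay outside the stretch of each gene, 100 to 96 bases before the RefSeq start of HMGCS1 and 34 to 30 bases before that of MSMO1. Among the 250-base RefSeq windows of 37 matched members, which make 55 windows, a CCAAT box in either direction lay in 30 (54.5%), against 32.0% of all 35116 windows of the table. In the 20 windows of sterol enzymes it lay in 15 (75.0%), and in the 22 windows of fatty acid genes in 11. ACAT2, FDFT1, SQLE, FASN and ABCG1 had no matched window, so these shares leave them out. Windows of a gene with more than 1 start can overlap and hold the same box, as for SC5D and ACLY, so windows are not independent. The GC box GGGCGG lay in 45 of 55 member windows (81.8%), against 42.6% of all. The element core TCACNCCAC lay in 2 of 55 (3.64%), those of SREBF2 and ACSL1, against 0.883% of all. The LXR repeat, AGGTCA written again after 4 free bases, lay in 0 of 55, against 5 of all windows. Both strands were searched, and each motif was counted whether or not it overlapped another.

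HMGCS1 makes HMG-CoA, the substrate of the rate-limiting step of the route. It was measured at 127 CPM in shA5, 137 CPM in A5-res and 101 CPM in shCtrl in number 2, and at 59.1 CPM in shA5, 52.3 CPM in A5-res and 58.6 CPM in shCtrl in number 1. The log2 fold change was 1.09 (SE 0.113, adjusted p = 8.97e-05 in edgeR). The number 1 libraries lay close together, while shCtrl was the lowest of those numbered 2.
LSS closes the sterol ring from squalene epoxide. Its level was 106 CPM in shA5, 109 CPM in A5-res and 118 CPM in shCtrl in number 2, against 76.0 CPM in shA5, 81.9 CPM in A5-res and 78.4 CPM in shCtrl in number 1, with no overlap. In log2 units the change was 0.49 (SE 0.0822, adjusted p = 0.00117 in edgeR).
TM7SF2, one of the reductases of the ring, had 11.3 CPM in shA5, 10.9 CPM in A5-res and 11.7 CPM in shCtrl in number 2 and 6.46 CPM in shA5, 9.25 CPM in A5-res and 6.29 CPM in shCtrl in number 1. On the log2 scale number 2 differed by 0.63 (SE 0.16, adjusted p = 0.0102 in edgeR). The A5-res library numbered 1 stood well above the other two of its number.
The other 4 that rose had smaller log2 fold changes, from 0.32 for FDPS to 0.48 for SC5D. The call of SC5D was lost in DESeq2, on the TPM scale, with GC and length offsets, and without either A5-res library. That of FDPS was also lost without shCtrl replicate 1, and that of CYP51A1 with the offsets.

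MSMO1, which removes methyl groups from the sterol ring, fell the most of all members. It had 20.8 CPM in shA5, 17.8 CPM in A5-res and 17.7 CPM in shCtrl in number 2 against 37.8 CPM in shA5, 28.97 CPM in A5-res and 28.0 CPM in shCtrl in number 1. The log2 fold change was -0.75 (SE 0.109, adjusted p = 5.79e-04 in edgeR), rank 10192 of 10808 genes from the top. The shA5 library was the highest within each number, and the value on the TPM scale was -0.42, still called.
PMVK, a kinase of the mevalonate steps, stood at 56.0 CPM in shA5, 51.7 CPM in A5-res and 65.4 CPM in shCtrl in number 2 and at 75.6 CPM in shA5, 81.1 CPM in A5-res and 75.1 CPM in shCtrl in number 1. Its log2 fold change was -0.43 (SE 0.103, adjusted p = 0.00796 in edgeR), with shCtrl the highest of the number 2 libraries, and -0.28 with GC and length offsets, still called. Its call, like those of IDI1 and NSDHL below, was lost without either shA5 library, whereas MSMO1 kept its call.
IDI1, the isomerase that follows those steps, was at 55.4 CPM in shA5, 57.1 CPM in A5-res and 51.8 CPM in shCtrl in number 2, and at 74.7 CPM in shA5, 67.7 CPM in A5-res and 72.2 CPM in shCtrl in number 1. Its log2 fold change was -0.38 (SE 0.0912, adjusted p = 0.00746 in edgeR).
NSDHL, which acts with MSMO1 in the removal of methyl groups, had a log2 fold change of -0.30 (SE 0.107, adjusted p = 0.0412 in edgeR). The 7 enzymes that did not pass the test were MVK, MVD, FDFT1, SQLE, HSD17B7, EBP and DHCR7, with log2 fold changes from -0.20 for FDFT1 to 0.28 for MVK. The call of IDI1 was also lost on the TPM scale, and that of NSDHL there, in DESeq2, with no filter, with ALKBH5 left out of the counts and without either A5-res library. Rising and falling enzymes lay in both early and late parts of the route, as the plot of TPM along the route shows.

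**Figure D3:**
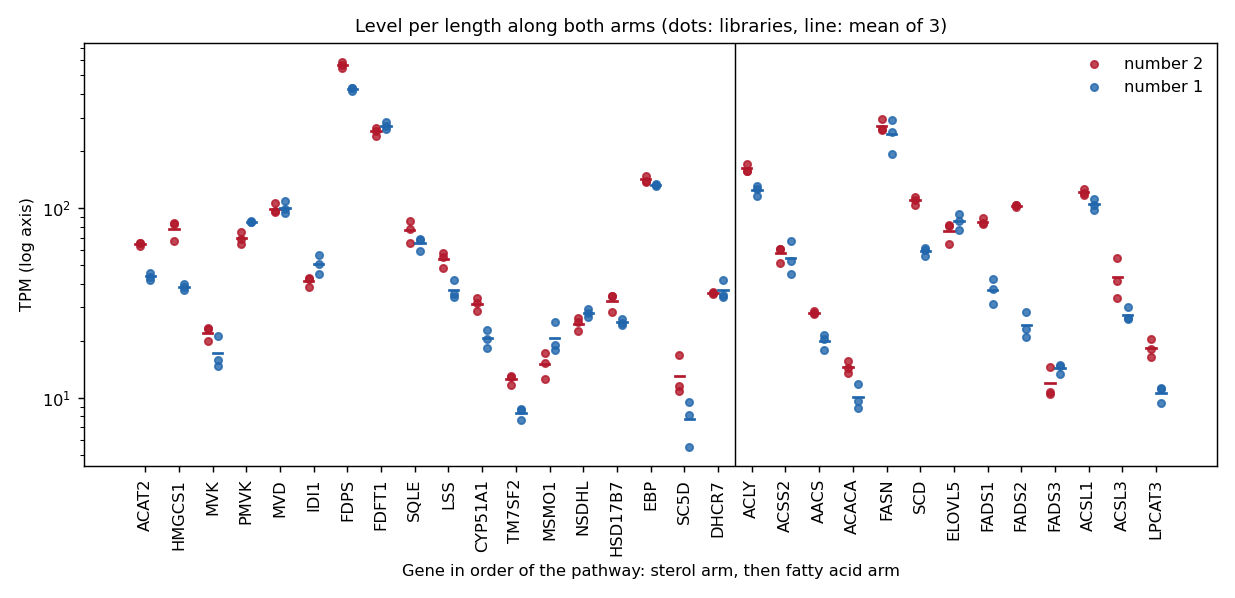
TPM of the 18 sterol enzymes and 13 fatty acid genes in route order on a log axis, with a dot for each library (number 2 left and red, number 1 right and blue) and a line for the mean of 3. HMGCS1, LSS and TM7SF2 stand higher in number 2 and PMVK, IDI1 and MSMO1 lower, while FADS2 shows the widest gap.

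Most fatty acid genes that were tested rose in number 2. Of 14 listed and 13 tested, 8 rose, 0 fell and 5 did not pass, with a median log2 fold change of 0.36. In other settings 2 of those 5 were called lower, FADS3 without either shCtrl library (-0.42 in both) and ELOVL5 with GC and length offsets (-0.30) and without A5-res replicate 1 (-0.22) or 2 (-0.21). The summed level of the 14 listed genes was 1102 ± 27.9 TPM in number 2 and 817 ± 67.7 TPM in number 1 (SD, n = 3 each), a ratio of 1.35. It includes the FASN forms that held few counts. The median was 0.25 within shA5, 0.55 within A5-res and 0.39 within shCtrl. The 8 were the desaturases FADS2, FADS1 and SCD, the lysophospholipid acyltransferase LPCAT3, the acetoacetate activating enzyme AACS, the acyl-CoA synthetase ACSL3, and FASN and ACLY.

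FADS2, the first desaturase of polyunsaturated fatty acid synthesis, had the largest change of any member. It stood at 180.0 CPM in shA5, 177 CPM in A5-res and 203 CPM in shCtrl in number 2, and at 40.3 CPM in shA5, 38.3 CPM in A5-res and 41.5 CPM in shCtrl in number 1. This is a 4.65-fold difference, with a log2 fold change of 2.22 (SE 0.0837, adjusted p = 1.05e-06 in edgeR), rank 9 of 10808 genes from the top. Within a number the labels differed by far less than the numbers did.
FADS1, its partner desaturase, lies on the opposite strand within its annotated span on chromosome 11 (GRCh38 61799625 to 61829318, minus strand, against 61792980 to 61867354, plus strand, for FADS2). It had 230.3 CPM in shA5, 221 CPM in A5-res and 244 CPM in shCtrl in number 2 against 99.5 CPM in shA5, 89.5 CPM in A5-res and 96.8 CPM in shCtrl in number 1, a 2.43-fold difference. As a log2 fold change this was 1.28 (SE 0.0797, adjusted p = 8.42e-06 in edgeR).
FADS3, the remaining gene of the same cluster, did not pass the test. Its level was 15.9 CPM in shA5, 14.7 CPM in A5-res and 20.2 CPM in shCtrl in number 2 and 19.6 CPM in shA5, 21.7 CPM in A5-res and 21.2 CPM in shCtrl in number 1, with overlap. Its fitted log2 fold change was -0.31 (SE 0.127, adjusted p = 0.0728 in edgeR), and the gene was called lower without either shCtrl library.

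LPCAT3 places polyunsaturated chains into phospholipids. Its level was 23.6 CPM in shA5, 21.4 CPM in A5-res and 29.1 CPM in shCtrl in number 2, against 12.1 CPM in shA5, 12.9 CPM in A5-res and 11.7 CPM in shCtrl in number 1, and the log2 fold change was 1.00 (SE 0.136, adjusted p = 4.03e-04 in edgeR). It shares 65.6% of its exon bases with EMG1 on the opposite strand, so reads of the pair cannot be told apart there. EMG1 had a log2 fold change of -0.57 (SE 0.119, adjusted p = 0.00394 in edgeR), at 28.3 ± 4.16 CPM in number 2 and 41.8 ± 3.23 CPM in number 1 (SD, n = 3 each).
SCD, which makes monounsaturated chains, is described outside the naming rule, as is FADS3, and both were chosen after their values were seen. It stood at 445 CPM in shA5, 455 CPM in A5-res and 452 CPM in shCtrl in number 2, and at 272 CPM in shA5, 267 CPM in A5-res and 266 CPM in shCtrl in number 1. The log2 fold change was 0.75 (SE 0.0785, adjusted p = 9.91e-05 in edgeR). The labels within a number lay close together.
AACS, ACSL3, FASN and ACLY had log2 fold changes of 0.75, 0.42, 0.31 and 0.27. The call of ACLY was also lost without either shCtrl library, and that of FASN on the TPM scale. The 5 genes that did not pass were ACACA, ACSS2, ELOVL5, FADS3 and ACSL1. ACACA, the rate-limiting carboxylase, spread widely, with 69.2 CPM in shA5, 69.7 CPM in A5-res and 91.3 CPM in shCtrl in number 2 and 79.7 CPM in shA5, 47.2 CPM in A5-res and 54.5 CPM in shCtrl in number 1. Its shA5 library numbered 1 lay among the number 2 values, and it was called higher without either shA5 library (0.65 and 0.66), without either A5-res library (0.27 in both) and with no filter (0.40).

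**Figure D4:**
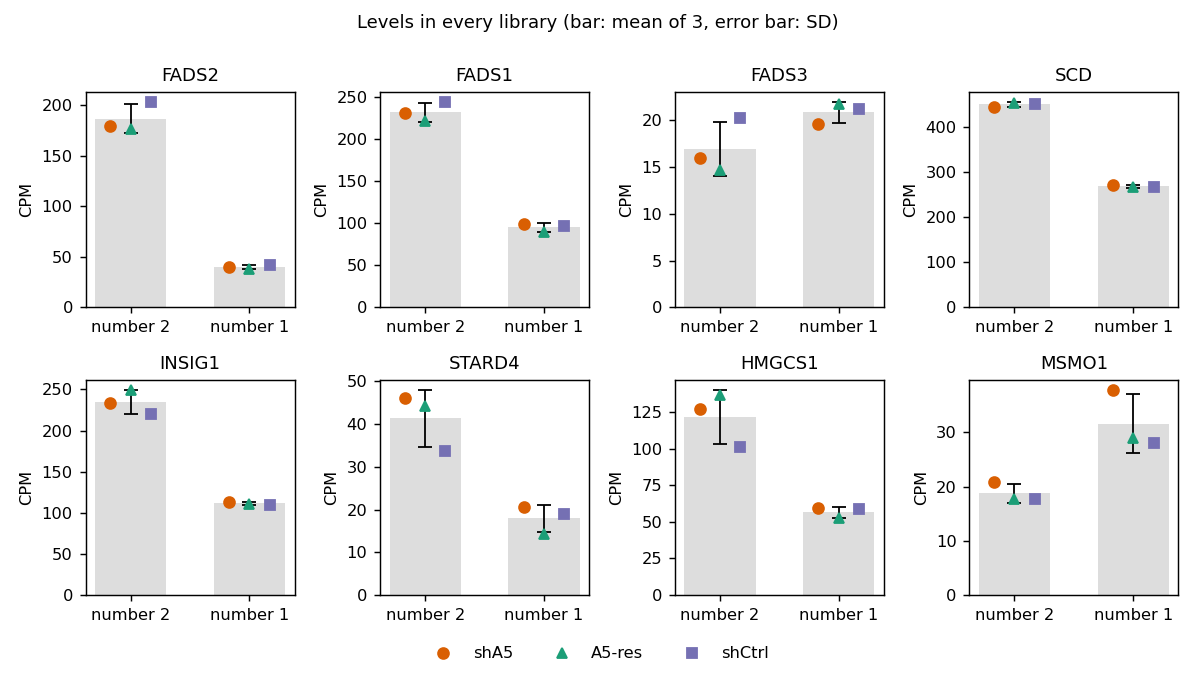
CPM of 8 members in every library, with number 2 left of number 1, a grey bar for the mean of 3, an error bar for the SD and a symbol for each label. FADS2, FADS1, SCD, INSIG1, STARD4 and HMGCS1 are higher and MSMO1 is lower in all number 2 libraries, and FADS3 overlaps.

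The LXR genes did not pass the test between numbers. None of the 4 was called, with a median log2 fold change of -0.02, 0 at an unadjusted p of 0.05, and 0 of the 4 called by DESeq2 as well. The receptor gene NR1H2 had 55.9 CPM in shA5, 59.5 CPM in A5-res and 63.4 CPM in shCtrl in number 2 against 61.5 CPM in shA5, 66.3 CPM in A5-res and 63.9 CPM in shCtrl in number 1, with overlap and a log2 fold change of -0.10 (SE 0.088, adjusted p = 0.376 in edgeR). The receptor gene NR1H3 had 21.6 CPM in shA5, 17.6 CPM in A5-res and 23.0 CPM in shCtrl in number 2 against 18.9 CPM in shA5, 21.2 CPM in A5-res and 19.5 CPM in shCtrl in number 1, with overlap and a log2 fold change of 0.06 (SE 0.131, adjusted p = 0.759 in edgeR). The 95% intervals were -0.30 to 0.10 for NR1H2 and -0.24 to 0.35 for NR1H3. The exporter ABCA1 had a log2 fold change of -0.22 (SE 0.103, 95% interval -0.45 to 0.0094), and among the settings run it was called only with GC and length offsets (-0.38) and without either A5-res library (-0.34 in both). ABCG1, the other exporter, was at 0.114 to 0.608 CPM in all libraries, and its 95% interval ran from -0.80 to 1.64 on the log2 scale.

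Set beside each other, the sterol enzymes had a median log2 fold change of 0.08 and the fatty acid genes 0.36, which is -0.28 as sterol minus fatty acid. That gap was -0.18 with GC and length offsets, -0.20 on the TPM scale and -0.35 to -0.19 with a library left out. The leave-one-out range averages over labels and so understates how far the gap differed between them. Within shA5, A5-res and shCtrl the sterol median was 0.13, 0.07 and 0.12, and the fatty acid median was 0.25, 0.55 and 0.39. The gap was thus narrowest in shA5 and widest in A5-res. The share called was nearly the same, 61.1% of sterol enzymes and 61.5% of fatty acid genes, but 4 of the 11 called sterol enzymes fell and none of the 8 called fatty acid genes did. FADS3 or ELOVL5 was called lower in 5 of the other settings. The gap is a description of these lists and was given no test.

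The transcript estimates show where the reads of the largest changes lay. Of 103 transcripts that held at least 5% of a member's counts, 48 were higher and 11 lower in every number 2 library, and 44 overlapped. The 59 that did not overlap are 57.3%, against 37.7% of all 38476 transcripts with such a share of a tested gene. The members' transcripts were higher in 46.6% and lower in 10.7%, against 22.8% and 14.9% of all. Estimates for overlapping transcripts are divided by a model and share reads.
FADS2-201, the form with the largest share of the gene's counts, stood at 38.6 ± 4.13 TPM in number 2 and 8.10 ± 1.36 TPM in number 1 (SD, n = 3 each). FADS2-202, which starts further inside the gene (GRCh38 chromosome 11, 61827761), stood at 25.1 ± 1.64 TPM in number 2 and 2.75 ± 0.321 TPM in number 1, a ratio of 9.10. FADS2-209, which starts at 61828280, stood at 17.5 ± 1.52 TPM in number 2 and 6.52 ± 0.655 TPM in number 1. All 3 forms were higher, by unequal ratios.
INSIG1-201 was higher in every number 2 library, at 86.7 ± 14.6 TPM in number 2 and 34.3 ± 1.54 TPM in number 1, and so was INSIG1-206, at 29.4 ± 3.96 TPM in number 2 and 8.16 ± 2.78 TPM in number 1. INSIG1-202 overlapped, at 14.1 ± 6.63 TPM in number 2 and 20.4 ± 1.79 TPM in number 1. Both main forms of MSMO1 were lower in number 2, MSMO1-201 at 7.01 ± 1.66 TPM against 11.3 ± 3.40 TPM in number 1, and MSMO1-202 at 5.17 ± 0.720 TPM against 7.97 ± 0.376 TPM in number 1. The protein-coding share of a member's counts was higher in every number 2 library for 8 members, lower for 3, and overlapped for 30. The 11 that did not overlap are 26.8%, against 18.9% of 13579 tested protein-coding genes, of which 12.7% were higher and 6.23% lower.

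Other genes of the same routes, listed with earlier results of these data known, moved in both directions. Of 11 further isoprenoid and sterol genes, 4 rose and 2 fell, among them LBR, a sterol reductase of the nuclear envelope (log2 fold change 0.71), and DHDDS, which makes dolichol precursors (-0.58). Of 10 genes of SREBP processing and degradation, 3 rose and 1 fell, and the cleavage protease gene MBTPS2 (0.76) and the ubiquitin ligase gene RNF139 (0.55) changed most. Of 20 tested of 21 further fatty acid synthesis genes, 6 rose and 4 fell, led by the dehydratase gene HACD4 (1.10) and the mitochondrial carboxylase gene ACACB (0.94). Of 9 further LXR partners and targets, 2 rose and 2 fell, with ABCG4 (-1.47, at a mean of 0.717 CPM in number 2 and 1.95 CPM in number 1) and the apolipoprotein gene APOC1 (-0.82) changing most. Of 9 tested of 10 genes of cholesterol esterification, storage and egress, 3 rose and 2 fell, with the ester hydrolase gene NCEH1 (-0.72) and ARV1 (0.72) changing most. Of 16 fatty acid oxidation genes, 5 rose and 2 fell, with the acyl-CoA dehydrogenase genes ACADS (1.19) and ACADM (0.73) changing most. The share called in these lists was 40.0% to 55.6%, near the background of 45.4%.

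Along the labels, no member passed the test in any of the 3 comparisons. In edgeR without a block, 0 of 41 members and 0 of 14497 genes (0%) were called for shA5 against shCtrl, for A5-res against shA5 and for A5-res against shCtrl. At an unadjusted p of 0.05 the counts of members were 0, 0 and 0, while 0.262%, 0.297% and 0.317% of all genes were below it in the same order. DESeq2 and limma-voom, also fitted without a block, called 0 members in each. In all these unblocked fits the difference between numbers counts as spread within a label, so they had little power to call a label difference. With replicate number as a block, 0 members were called, beside 1 gene (0.00690%), 0 genes and 1 gene (0.00690%). At an unadjusted p of 0.05 with the block, 1, 3 and 1 of the 41 members were below it, against 2.39%, 2.0% and 1.65% of all genes. The comparisons share libraries, so their values are not independent of one another. With the block and 1 library left out, members were called in 2 cases, where the rest of the table was called more often too. Without A5-res replicate 2, ACACA (-0.54), STARD4 (-0.61) and ABCA1 (-0.48) were lower in A5-res than in shA5, beside 6.74% of all genes, and ACACA (-0.49) was lower than in shCtrl, beside 0.677%. Without A5-res replicate 1, HMGCS1 was higher in A5-res than in shCtrl (0.36, adjusted p = 0.04996 in edgeR), beside 5.10% of all genes. Each of those A5-res values rests on a single library.

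The blocked fit gave a 95% interval for each label difference, for single genes and without adjustment for the number of genes. For shA5 against shCtrl, the 95% intervals of all sterol enzymes lay between -0.53 and 0.63 on the log2 scale. Those of SREBP regulation and sterol transport lay between -0.53 and 0.69 and those of the tested fatty acid genes between -0.58 and 0.51. For A5-res against shA5 the intervals of these 3 roles, in the same order, lay between -0.60 and 0.67, between -0.66 and 0.71 and between -0.82 and 0.38. For A5-res against shCtrl they lay between -0.47 and 0.66, between -0.39 and 0.66 and between -0.74 and 0.32. The LXR role, which includes ABCG1 with its few reads, had wider limits. Its intervals lay between -1.73 and 1.82, between -0.57 and 2.87 and between -0.49 and 2.96 in the 3 comparisons. Medians were -0.02, -0.0022 and -0.03 for all tested members in the 3 comparisons, and -0.03, 0.0033 and -0.01 for all genes.

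For shA5 against shCtrl, the members with the smallest unadjusted p were MSMO1, NSDHL and STARD4. MSMO1 stood at 20.8 and 37.8 CPM in shA5 and at 17.7 and 28.0 CPM in shCtrl, in libraries 2 and 1. The blocked log2 fold change was 0.34 (SE 0.133, adjusted p = 0.978 in edgeR), with 0.23 within number 2 and 0.43 within number 1. NSDHL had 26.9 and 34.6 CPM in shA5 and 34.3 and 37.7 CPM in shCtrl, and a blocked log2 fold change of -0.24 (SE 0.131). STARD4 had 46.0 and 20.5 CPM in shA5 and 33.8 and 19.0 CPM in shCtrl, and a blocked log2 fold change of 0.28 (SE 0.180). Each kept its sign within both numbers, but picking members by the smallest blocked p favours such agreement.

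For A5-res against shA5, the smallest were MSMO1, ABCG1 and ABCA1. MSMO1 had 17.8 and 28.97 CPM in A5-res and 20.8 and 37.8 CPM in shA5, in libraries 2 and 1. Its blocked log2 fold change was -0.31 (SE 0.132, adjusted p = 1.00 in edgeR), with -0.22 within number 2 and -0.38 within number 1. ABCA1 had 134 and 130.4 CPM in A5-res and 136 and 190.2 CPM in shA5, and nearly the whole difference lay within number 1 (-0.54, against -0.02 within number 2). ABCG1 had 9 and 14 counts in A5-res and 6 and 2 counts in shA5, so its blocked log2 fold change of 1.45 (SE 0.635) rests on few reads. For A5-res against shCtrl, they were ABCG1, ABCA1 and ACACA, with blocked log2 fold changes of 1.49 (SE 0.658), -0.21 (SE 0.126) and -0.31 (SE 0.192). ABCG1 had 9 and 14 counts in A5-res and 5 and 2 counts in shCtrl, in libraries 2 and 1. ABCA1 had 134 and 130.4 CPM in A5-res and 142 and 165 CPM in shCtrl, lower in A5-res within both numbers. ACACA had 69.7 and 47.2 CPM in A5-res and 91.3 and 54.5 CPM in shCtrl, also lower within both. These members too were picked by their blocked p, which favours such agreement. The sign of the difference was the same within both numbers for 22, 20 and 15 of the 41 members in the 3 comparisons, against 56.1%, 44.6% and 34.7% of all genes.

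**Figure D5:**
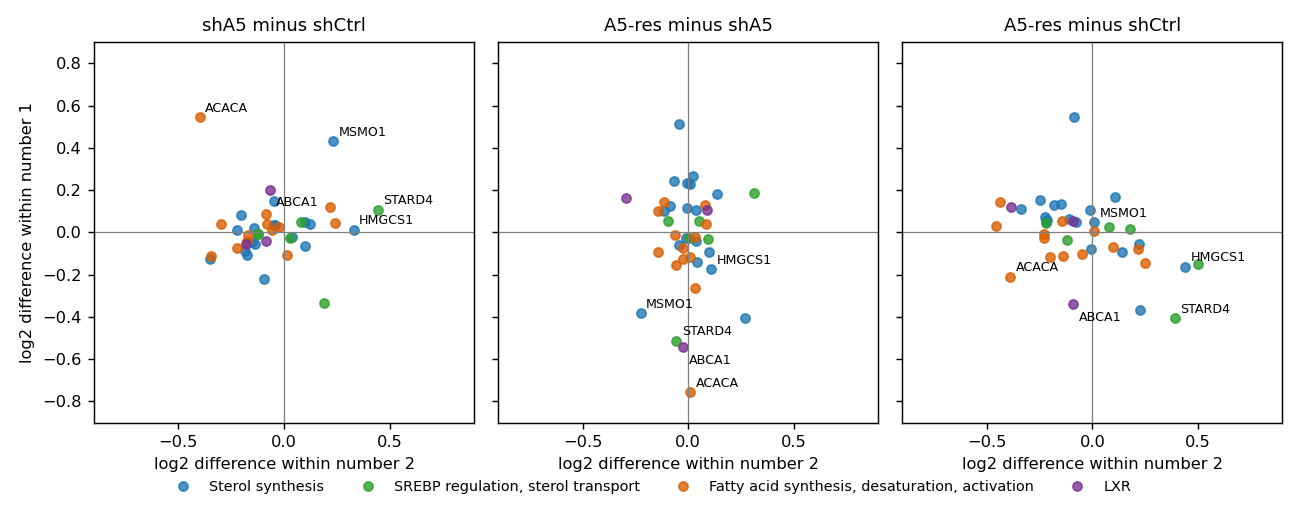
Log2 difference between labels within number 2 (x axis) and within number 1 (y axis) for the 40 members with a mean of at least 5 CPM, with a panel for each comparison and a colour for each role. Points gather near 0 on both axes, and MSMO1 lies on the same side in both numbers for shA5 against shCtrl and for A5-res against shA5. ACACA lies on opposite sides for shA5 against shCtrl, and STARD4 does for A5-res against shCtrl.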

How the data were processed

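Per the labels' protocols, RNA was selected with oligo-dT and copied from random primers. The submitters' processing notes name CASAVA, kallisto 0.43.1 and the build hg38. The deposited tables give the authors' estimated counts and TPM per transcript for 179973 transcripts, and no label states filters or pooling. Of these, 163714 (91.0%) matched GENCODE 29, and the rest (3.13% to 3.32% of counts per library) were left out. Estimated counts were summed per gene and rounded. Tests used edgeR 4.0.16 in R 4.3.3 (TMM, filterByExpr, quasi-likelihood, all 6 libraries), with Benjamini-Hochberg adjustment over 14497 genes. Labels were compared without a block (3 residual degrees of freedom), and numbers with group as a term (2 residual degrees of freedom). Libraries of the same number varied together: their deviations from group means correlated at 0.60 to 0.73. The first principal component (65.3% of variance) separated the numbers. The labels state no pairing, so for label comparisons the replicate number was a block only in an alternative fit. Intervals are 95%. The procedure was also run on simulated data, and the outcome is not given here. In the simulated comparison of numbers only a small part of the genes changed, unlike in these data. Groups were taken from titles. DESeq2 1.42.0, limma 3.58.1 and the other settings are in the closing section. Members, lists and tests were chosen with earlier results of these data known. Always named were SREBF1, SREBF2, SCAP, INSIG1, INSIG2, NR1H2, NR1H3 and ALKBH5. Also named were, per role and direction, up to 3 members past the threshold with the largest change and a mean of at least 5 CPM, the 3 members with the smallest blocked p for each label comparison, and up to 2 genes of each other list.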

Additional observations from a re-analysis of the deposited data

Results flagged for a closer look

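Differences between labels that ran in opposite directions within the 2 replicate numbers, each at least 0.3 on the log2 scale, were found for 2 members, with a limit chosen after the values were seen. ACACA was lower in shA5 than in shCtrl within number 2 (log2 difference -0.3989) and higher within number 1 (0.5465). STARD4 was higher in A5-res than in shCtrl within number 2 (0.3892) and lower within number 1 (-0.4053). Each value compares 1 library with 1 library, and the difference between numbers was not tested, since 6 coefficients for 6 libraries leave no residual degrees of freedom.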

How the results depend on the processing

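Number 2 against number 1 was recomputed with RLE size factors, DESeq2, limma-voom, no filter, a filter keeping genes that reach 1 CPM in 2 or more libraries, log2(TPM + 1) with limma, no group term and each library left out. Offsets for GC and length, and ALKBH5 left out of the counts, were added after seeing the data. All 25 called members kept their direction in each of these settings, and 14 to 27 members were called. On the TPM scale 2 members were called lower, and leaving out a library gave 13 to 21 called higher, 1 to 5 called lower and 3915 to 6811 genes called. The sterol median was 0.12 with no filter, 0.28 on the TPM scale, 0.12 with the offsets and 0.059 to 0.13 with a library left out. The SREBP median was 0.72 with the offsets and 0.64 to 0.78 with a library left out. NR1H2 changed sign on the TPM scale (0.0298) and with the offsets (0.0176), and NR1H3 ran from -0.0249 to 0.23 with a library left out. The causes were not tested. Across genes, the log2 fold change correlated with GC content at a Spearman rho of -0.202 and with length at 0.114, as a description.

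Between labels, the replicate block gave 1 called gene for shA5 against shCtrl, 0 for A5-res against shA5 and 1 for A5-res against shCtrl, and changed no member's call. With a library left out, 0 genes were called without the block in each comparison, and with it 1 to 420, 0 to 1005 and 1 to 764 genes and 0, 0 to 3 and 0 to 1 members. In the fits without the block the log2 fold change of shA5 against shCtrl ran from -0.13 to 0.73 for MSMO1 and from -0.37 to 0.81 for STARD4, and with the block from 0.25 to 0.42 and from -0.0112 to 0.56. That of A5-res against shA5 for MSMO1 ran from -0.72 to 0.17 without the block and from -0.40 to -0.22 with it. That of A5-res against shCtrl for ACACA ran from -0.65 to 0.10 without it and from -0.57 to -0.0094 with it, and was 0.0026 on the TPM scale. An arm left with 1 library was assumed to vary like the others. With 2 libraries per label and a coefficient of biological variation of 27.7% without the block and 10.6% with it, small label differences were not detectable at this depth.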
